A study of Mus musculus with 12 samples.

Results

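The Gimap genes of the mouse encode GTPases of immunity-associated proteins and lie side by side on chromosome 6. The 8 members described here, Gimap1, Gimap3, Gimap4, Gimap5, Gimap6, Gimap7, Gimap8 and Gimap9, were taken by gene symbol from a table of 32121 genes, and all 8 were in the table and passed the filter on low counts. RNA had been sequenced from spleens of 3 SB animals and 3 WT animals, with 2 pieces per spleen and therefore 12 libraries. The SB animals carried VEC-Cre, the SB Transposase (Sleeping Beauty, an enzyme that moves DNA transposons) and onc2, a mutagenic transposon. VEC-Cre is a Cre recombinase driven by the promoter of Cdh5, the VE-cadherin gene of endothelial cells, and Cre lines of this kind are also known to recombine in blood cells that descend from endothelium. The WT animals carried none of these alleles. Every animal was C57BL/6, and the labels give no age. The stated aim was to learn how clonal each spleen was by comparing its pieces.

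Gimap proteins bind guanine nucleotides and sit on the membranes of organelles such as the endoplasmic reticulum, lysosomes and lipid droplets. They are made mainly in lymphocytes, and several are known from mice or rats in which their loss shortens the life of T cells or B cells. Members are also made in endothelial cells. The spleen holds large numbers of B and T cells in its white pulp, so Gimap RNA is abundant in the healthy organ.

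The members share a nucleotide-binding loop, called the P-loop, and the similarity of their sequences bears on how well reads can be assigned to each gene. The coding sequence of this loop is given below for 4 members, with its 8 codons in capitals, from GENCODE M21 transcripts on the GRCm38 build (chromosome 6).
Gimap3: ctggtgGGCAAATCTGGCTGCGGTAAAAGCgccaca
Gimap5: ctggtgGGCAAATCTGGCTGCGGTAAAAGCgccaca
Gimap6: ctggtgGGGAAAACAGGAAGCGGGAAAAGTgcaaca
Gimap9: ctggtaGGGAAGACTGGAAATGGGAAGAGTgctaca
The stretches of Gimap3 and Gimap5 were identical over all 36 bases, while those of every other pair of members shared 21 to 30 bases (for Gimap8, which has 3 such loops, the first was used). Of all 50-base windows in Gimap3 transcripts, 8.15% also occurred in transcripts of other genes, among them Gimap5, and 6.84% of the Gimap5 windows were shared with Gimap3 or with Gm28053, a read-through gene. In Gimap1, 35.53% of windows were shared with other genes, among them its antisense partner Gimap1os. Gimap1os and Gm28053 together overlap Gimap1 by 1107 exon bases. The shares were 1.39% for Gimap7, 0.17% for Gimap6 and 0 for Gimap4, Gimap8 and Gimap9. The libraries carried no strand, so reads from the bases that Gimap1 and Gimap1os share cannot be told apart, and the levels of Gimap1, Gimap3 and Gimap5 are uncertain to this extent.

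The libraries held 14320833 to 22031026 counts. The 8 members together took 3545 to 9299 counts per SB spleen and 77459 to 90917 counts per WT spleen, with both pieces summed. Sex-linked RNA was unequal between the genotypes: Xist, the X-inactivation RNA of females, was at 2260 CPM (counts scaled per library with TMM factors) in SB animal 1, at 1000 CPM in SB animal 2 and at 1.67 CPM in SB animal 3, against 1.49 to 2.43 CPM in the WT animals. Genotype and sex were thus partly confounded, and the WT animals lacked a female.

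Gimap RNA was far lower in the SB spleens than in the WT spleens. The sum of the 8 members was 100.4 CPM in SB animal 1, 281.3 CPM in SB animal 2 and 145.3 CPM in SB animal 3, against 2590, 2514 and 2701 CPM in WT animals 1, 2 and 3. The WT mean was 25.9, 9.25 and 17.9 times the level of SB animal 1, 2 and 3. In a quasi-likelihood test of edgeR over 17328 genes, on counts summed per animal, all 8 members fell in SB spleens at an adjusted p under 0.05, whereas 9.75% of all genes tested were lower at that threshold. For all 8 members every SB library lay below every WT library, which held for 16.5% of all genes tested. Without WT animal 1, 2 or 3 the number of called members was 5, 4 or 4. Calls over all genes dropped as well, from 18.3% in either direction with all animals to 4.56%, 3.07% or 3.53%. In bulk RNA, fewer cells of a type and less RNA per cell cannot be told apart.

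**Figure D1:**
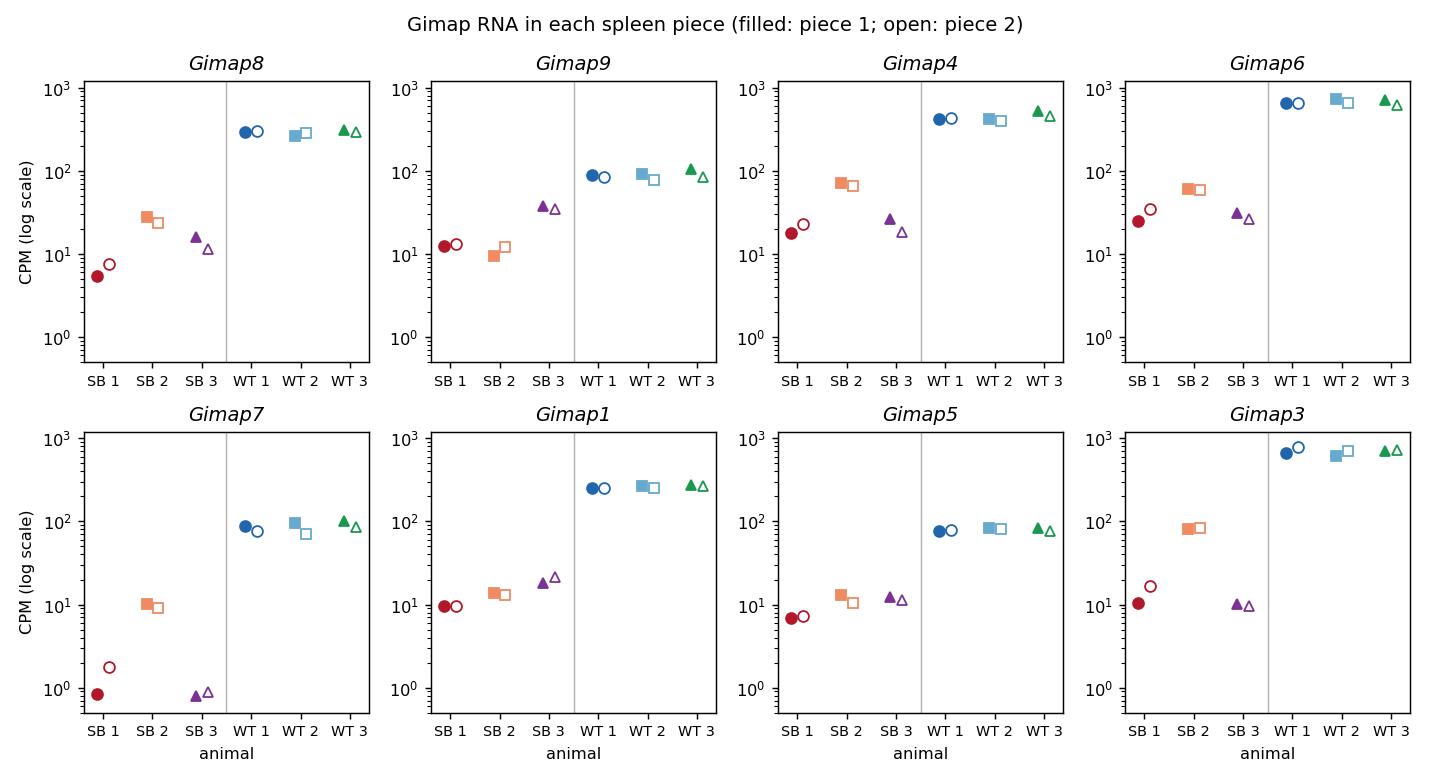
Level of each Gimap gene in each of the 12 spleen pieces, in CPM on a log axis. Each panel is a gene, each position an animal (SB left, WT right), filled points are piece 1 and open points piece 2. All SB points lie below all WT points in every panel, and SB animal 2 is the highest of the SB animals for Gimap3, Gimap4, Gimap6, Gimap7 and Gimap8, while SB animal 3 is the highest for Gimap9 and Gimap1.

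Among the members tied to lymphocyte survival, Gimap5 is the best known, since its loss in rats and mice depletes T cells. Gimap5 (ENSMUSG00000043505, chr6:48746197-48754210, plus strand) had 7.05, 11.6 and 12.04 CPM in SB animals 1, 2 and 3, against 76.6, 81.9 and 80.0 CPM in WT animals 1, 2 and 3. SB animal 1 was the lowest of the SB spleens, and the nearest libraries of the groups, 12.9 CPM in SB and 75.8 CPM in WT, were far apart. Gimap5 averaged 10.2 ± 2.75 CPM in SB and 79.5 ± 2.66 CPM in WT spleens (SD, n = 3 each). Its log2 change was -2.96, with SE 0.25 and an edgeR adjusted p of 0.00312. Its coefficient of variation over SB animals, 26.9%, was the smallest of the 8 members.

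Gimap1 is needed in mice for the survival of mature T and B cells. Gimap1 (ENSMUSG00000090019, chr6:48739054-48743795, plus strand) had 9.60, 13.4 and 20.0 CPM in SB animals 1, 2 and 3, against 253.2, 256.7 and 266.6 CPM in WT animals 1, 2 and 3. It averaged 14.3 ± 5.25 CPM in SB and 258.8 ± 6.94 CPM in WT spleens (SD, n = 3 each). Its log2 change was -4.17, with SE 0.31 and an edgeR adjusted p of 0.00237. SB animal 3 held the highest SB level of this gene, 2.08 times that of SB animal 1, and the groups did not overlap.

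Gimap3, whose P-loop stretch above matches that of Gimap5 base for base, was uneven among SB spleens. Gimap3 (ENSMUSG00000039264, chr6:48764464-48770851, minus strand) had 13.3, 82.6 and 9.95 CPM in SB animals 1, 2 and 3, against 730.5, 646 and 709 CPM in WT animals 1, 2 and 3. SB animal 2 stood 8.3 times above SB animal 3, yet well below the lowest WT library at 604 CPM. The log2 change of Gimap3 was -4.30 (SE 0.92, edgeR adjusted p = 0.0281), and it moved to -5.90 without SB animal 2. Without WT animal 1, 2 or 3 its adjusted p was 0.0903, 0.0919 or 0.0957.

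Gimap4 and Gimap6 act in T cell death and in autophagy: Gimap4 promotes the completion of T cell apoptosis, and Gimap6 binds the autophagy protein GABARAPL2. Gimap4 (ENSMUSG00000054435, chr6:48684549-48692060, plus strand) had 20.2, 68.7 and 22.8 CPM in SB animals 1, 2 and 3, against 425, 408 and 487 CPM in WT animals 1, 2 and 3. SB animals 1 and 3 were alike and SB animal 2 was higher. Its log2 change was -3.56 (SE 0.54, edgeR adjusted p = 0.0113), moving to -4.36 without SB animal 2, and its adjusted p was 0.0545 without WT animal 2 and 0.0537 without WT animal 3. Gimap6 (ENSMUSG00000047867, chr6:48701582-48708225, minus strand) had 29.7, 59.2 and 28.9 CPM in SB animals 1, 2 and 3, against 644, 683 and 669 CPM in WT animals 1, 2 and 3. SB animal 2 was again the highest. The log2 change of Gimap6 was -4.08 (SE 0.35, edgeR adjusted p = 0.00333).

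Gimap7, known from the human protein to stimulate GTP hydrolysis when it pairs with a partner, was near 1 CPM in 2 of the SB spleens. Gimap7 (ENSMUSG00000043931, chr6:48718621-48724636, plus strand) had 1.27, 9.53 and 0.848 CPM in SB animals 1, 2 and 3, against 81.3, 82.9 and 93.8 CPM in WT animals 1, 2 and 3. The single libraries of SB animals 1 and 3 rested on 16, 29, 17 and 18 counts, so these values carry the largest counting error of the family. The SB levels spanned 11.2 times, the widest ratio among the members, and SB animal 2 stood alone. The log2 change of Gimap7 was -4.47 (SE 1.01, edgeR adjusted p = 0.0331), and -6.34 without SB animal 2. Its adjusted p was 0.0547 and 0.051 without SB animal 1 or 3, and 0.1, 0.105 and 0.11 without WT animal 1, 2 or 3.

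Gimap8 has the longest coding sequence of the members, at 688 codons, with 3 P-loops where the others have 1. Gimap8 (ENSMUSG00000064262, chr6:48647234-48660875, plus strand) had 6.40, 25.3 and 13.95 CPM in SB animals 1, 2 and 3, against 294, 272 and 300.5 CPM in WT animals 1, 2 and 3. It was lowest in SB animal 1, and the groups did not overlap. Its log2 change was -4.24 (SE 0.53, edgeR adjusted p = 0.00714).

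Gimap9 fell least. Gimap9 (ENSMUSG00000051124, chr6:48676129-48679114, plus strand) had 12.9, 11.01 and 36.9 CPM in SB animals 1, 2 and 3, against 85.8, 84.2 and 94.4 CPM in WT animals 1, 2 and 3. Here SB animal 3 was the high spleen and SB animal 2 the lowest, the reverse of Gimap3 and Gimap7. The log2 change was -2.12 (SE 0.49, edgeR adjusted p = 0.0354), and -2.88 without SB animal 3. Its adjusted p was 0.0644 without SB animal 1 and 0.112, 0.115 and 0.126 without WT animal 1, 2 or 3.

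**Figure D2:**
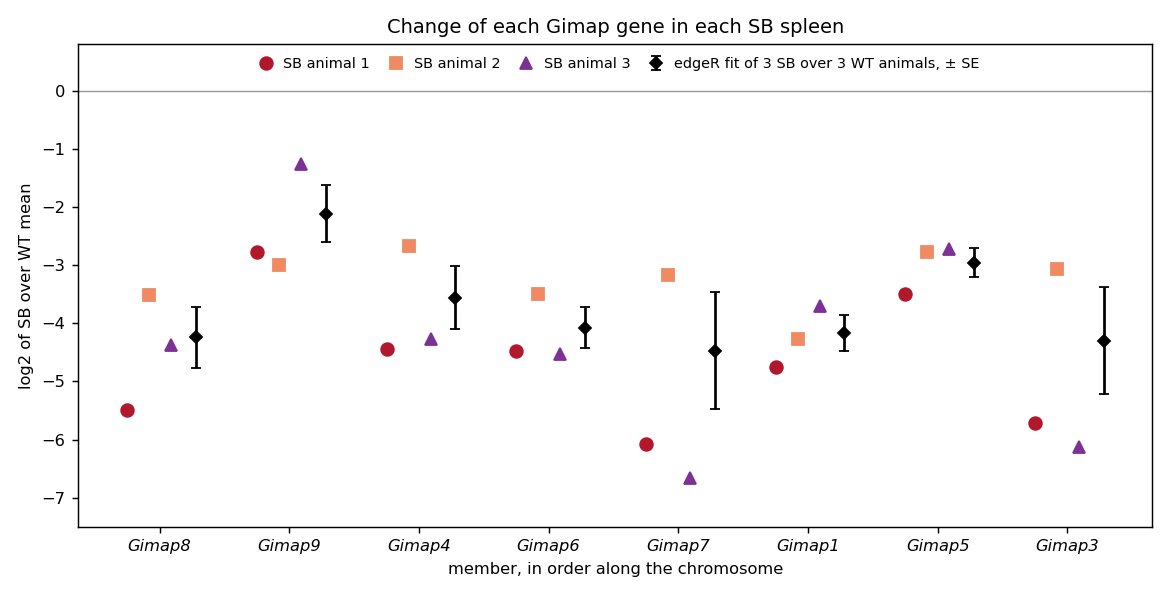
Log2 of the level in each SB spleen over the WT mean (coloured points), with the edgeR log2 change of 3 SB over 3 WT animals and its standard error (black diamonds), members in order along the chromosome. The fitted changes run from -2.12 for Gimap9 to -4.47 for Gimap7, and the SB animals lie widest apart for Gimap7 and Gimap3.

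Per kilobase of exon, so that genes can be set against each other, the order of mean levels was as follows. In SB spleens the order by mean CPM per kilobase was Gimap4 (20.3), Gimap3 (13.7), Gimap9 (12.3), Gimap6 (11.2), Gimap1 (4.66), Gimap8 (4.11), Gimap5 (2.46) and Gimap7 (1.67). The SB animals' ranges of neighbouring genes in that order overlapped except between Gimap6, at 8.26 or more, and Gimap1, at 6.5 or less. The place of Gimap3 rested on SB animal 2, where it had 32.0 per kilobase, against 3.86 in the lowest SB animal. As a share of the family's counts per kilobase, Gimap4 led in SB animals 1 and 2 with 27.8% and 33.7%, and Gimap9 led in SB animal 3 with 37.1%. In WT spleens the order was Gimap3 (269.8), Gimap4 (239.5), Gimap6 (190.2), Gimap1 (84.2), Gimap8 (78.1), Gimap9 (53.7), Gimap7 (37.0) and Gimap5 (19.2), and only the ranges of Gimap3 and Gimap4 overlapped. The exon lengths are those of all annotated transcripts of a gene together.

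The SB spleens differed from each other in Gimap RNA by more than the pieces of a spleen did. In an F test of edgeR over 15523 genes, with the error taken from the 2 pieces of each spleen, 8 of 8 members differed between SB animals, beside 72.9% of all genes tested. The members' count was therefore read against that share and not taken as particular to them. Between WT animals the same test called 0 of 8 members, beside 0.47% of all genes. At an unadjusted p under 0.05 there were also 0 members, beside 1060 of 15523 genes. Coefficients of variation over animals ran from 26.9% to 126% among the members in SB spleens and from 2.68% to 9.52% in WT spleens.

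Compared with the average of the other SB animals, most members were higher in SB animal 2. Of the 8 members 6 were higher (beside 30.6% of all genes) and 1, Gimap9, was lower (beside 27.0%). Gimap7 was higher by a log2 difference of 3.20 (SE 0.24, edgeR adjusted p = 2.97e-07) and Gimap3 by 2.84 (SE 0.15, edgeR adjusted p = 1.86e-08). The differences of Gimap4, Gimap8, Gimap6 and Gimap5 were 1.69, 1.44, 1.02 and 0.35, and that of Gimap9 was -0.998 (SE 0.14). Gimap1 did not pass the test in this animal, with a log2 difference of -0.04 (SE 0.10, edgeR adjusted p = 0.774). 

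SB animal 3 showed another pattern. Gimap9 was higher there by a log2 difference of 1.62 (SE 0.13, edgeR adjusted p = 9.18e-07), Gimap1 by 0.80 and Gimap5 by 0.38, so that 3 members were higher (beside 23.8% of all genes). Gimap7, Gimap3, Gimap4 and Gimap6 were lower, with log2 differences of -2.06, -1.76, -0.75 and -0.57, so that 4 members were lower (beside 24.6%), and Gimap8 did not pass the test at 0.09 (SE 0.15). In SB animal 1 all 8 members were lower than the mean of the other SB animals and 0 were higher (beside 29.4% and 27.1% of all genes), with log2 differences between -0.45 for Gimap6 and -1.54 for Gimap8. The contrasts of the SB animals share libraries and are not independent of each other, so their p-values hold for these 3 spleens and no others.

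The make-up of the Gimap counts needs no library size, and it too was uneven in SB spleens. Gimap9 made 12.8%, 3.91% and 25.4% of all Gimap counts in SB animals 1, 2 and 3, against 3.31%, 3.35% and 3.49% in WT animals 1, 2 and 3. The 95% Clopper-Pearson intervals, which cover counting error only, were 24.3% to 26.5% in SB animal 3 and 3.53% to 4.33% in SB animal 2. The point value of the Gimap9 share was larger in each SB spleen than in any WT spleen, but the interval of SB animal 2 overlapped that of WT animal 3 (3.38% to 3.62%). The mean difference was 10.7 percentage points (two-sided exact permutation p = 0.1, adjusted over 8 members 0.267), 4.99 without SB animal 3 and 15.7 without SB animal 2. Gimap5 made 7.02%, 4.11% and 8.28% in SB animals against 2.96%, 3.26% and 2.96% in WT animals, and Gimap8 made 6.38%, 9.0% and 9.60% in SB animals against 11.4%, 10.8% and 11.1% in WT animals. Both also had an exact permutation p of 0.1, the smallest that 3 against 3 animals can give, and the mean difference of Gimap8 was -2.77 percentage points, or -1.8 without SB animal 1. Gimap3 made 13.2%, 29.4% and 6.85% in SB animals against 28.2%, 25.7% and 26.3% in WT animals, so the SB values lay on both sides. The other members had exact permutation p-values of 0.3 to 0.7, and that of Gimap3 was 0.4.

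**Figure D3:**
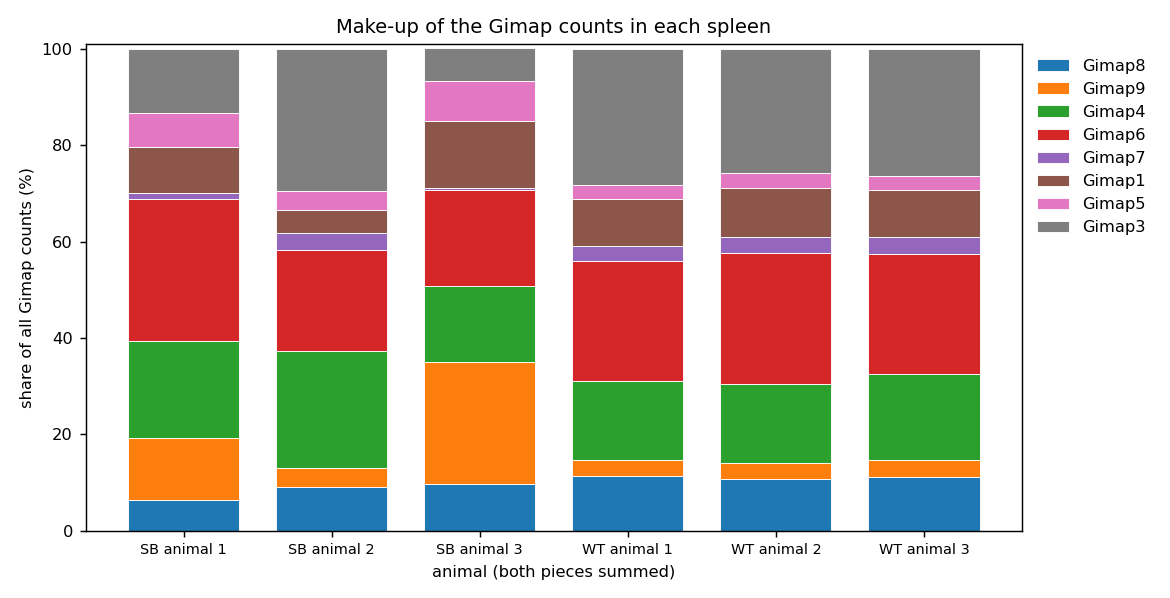
Share of each member in all Gimap counts of a spleen, in percent, as stacked bars for 3 SB and 3 WT animals with both pieces summed. The WT bars are alike, while Gimap9 takes 25.4% in SB animal 3 and Gimap3 takes 29.4% in SB animal 2 but 6.85% in SB animal 3.

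Pieces of the same spleen were set against each other because that is the comparison the study was built on. The largest difference of a member between pieces was 0.61 on the log2(CPM + 1) scale, for Gimap3 in SB animal 1, where piece 2 had 16.5 CPM and piece 1 had 10.5 CPM. The median size of the 24 differences (8 members in 3 animals) was 0.17 in SB and 0.09 in WT spleens, on a scale that understates changes of low genes. With the animal as a block, edgeR called 0 of 8 members between pieces of SB spleens, beside 0.0119% of all genes, which was 2 of 16787. At an unadjusted p under 0.05 there were 0 members, beside 3509 of 16787 genes. The share of 0.0119% rested on SB animal 2: without it 725 genes were called (4.14%), and still 0 of 8 members. In WT spleens edgeR called 0 of 8 members, beside 8.82% of all genes. At an unadjusted p under 0.05 there were 2 members, beside 4519 of 16787 genes. A count of 2 in 8 is near that share and was not taken as particular to the members. The 2 were Gimap7, with less RNA in piece 2 than in piece 1 in 3 of 3 WT spleens (log2 -0.30, SE 0.10, edgeR adjusted p = 0.0922), and Gimap9 (log2 -0.21, SE 0.09, edgeR adjusted p = 0.15). Without WT animal 2, and likewise without WT animal 3, 0 genes were called in WT spleens. At an unadjusted p under 0.05 there were then 0 members, beside 2564 and 2979 genes. Titles number the pieces of SB spleens and letter those of WT spleens, descriptions call both piece 1 and piece 2, and no position in the organ is given. With the pieces matched by those descriptions, the difference of the piece effects between SB and WT spleens was called for 0 of 8 members, beside 1.23% of all genes. At an unadjusted p under 0.05 there were 0 members, beside 2932 of 16787 genes. For Gimap7 the difference of the piece effects was 0.42 (SE 0.22) and for Gimap9 0.27 (SE 0.14) on the log2 scale.

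**Figure D4:**
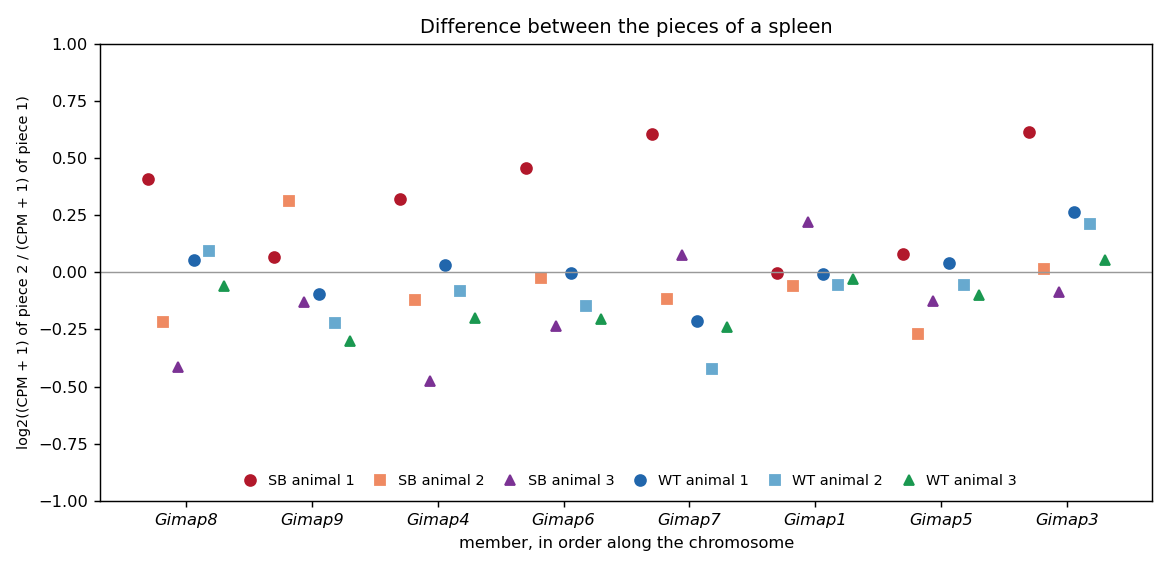
Log2 difference of piece 2 over piece 1, from CPM + 1, for each member in each of 3 SB and 3 WT spleens. Points spread between -0.48 and 0.61 in SB spleens and between -0.43 and 0.27 in WT spleens, and Gimap1, Gimap6, Gimap7 and Gimap9 lie below 0 in all 3 WT spleens.

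Along the chromosome, all 8 members and 3 of the 4 other tested genes of the cluster fell, beside 9.75% of all genes tested. Of 6 tested neighbours 1 fell, a count not far from that share. The members span chr6:48647234-48770851 on GRCm38, 123.6 kb with 13 annotated genes in the order Gimap8, Gimap9, Gimap4, Gimap6, Gimap7, Gimap1, Gimap5 and Gimap3. Of the other genes there, Gimap1os had 0.397, 2.57 and 0.557 CPM in SB animals 1, 2 and 3 against 17.9, 21.4 and 20.3 CPM in WT animals 1, 2 and 3 (log2 -4.08, SE 0.78, edgeR adjusted p = 0.0209), with the limit that 35.7% of its exon bases are shared. The long noncoding genes 4833403J16Rik (log2 -3.58, SE 0.40) and Gm44226 (log2 -2.55, SE 0.48) fell too, and they overlap each other by 649 exon bases. Gm28053 did not pass the test (log2 -3.04, SE 0.86, edgeR adjusted p = 0.0591), and Gm44262, a pseudogene, is not analysed here. On the Gimap8 side, Repin1, Zfp775 and AI854703 had log2 changes of 1.04, -0.88 and 0.41, and none passed the test. For Zfp775 every SB library, at 7.77 CPM or less, still lay below every WT library, at 8.64 CPM or more. That held for 16.5% of all genes tested. On the Gimap3 side, Tmem176b and Tmem176a, which encode membrane proteins of myeloid and dendritic cells, had log2 changes of 0.21 and -0.06 and did not pass it. Tmem176b had 245, 424 and 68.2 CPM in SB animals against 201, 213.5 and 224 CPM in WT animals, so the SB values lay on both sides. Aoc1, a diamine oxidase gene, fell (log2 -2.80, SE 0.43, edgeR adjusted p = 0.0113) and was low in both genotypes, at 0.319 CPM in SB and 2.22 CPM in WT spleens.

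**Figure D5:**
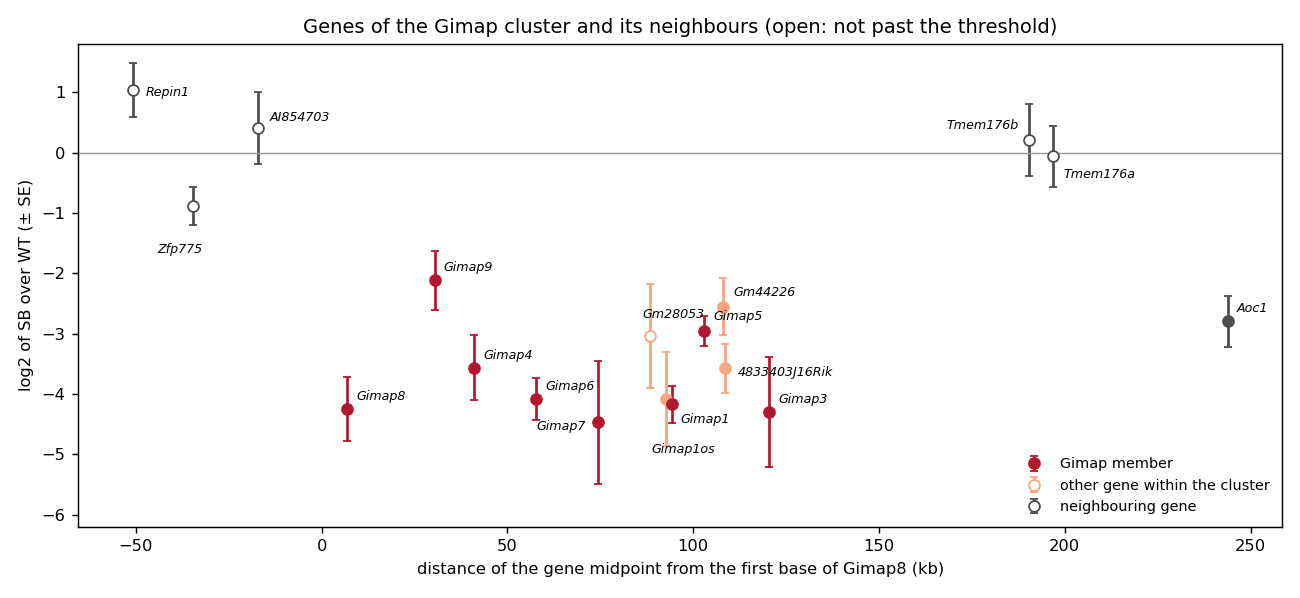
Log2 change of SB over WT, with its standard error, of the 8 members (dark red), the other tested genes within the cluster (pale) and 3 tested genes on either side (grey), by distance of the gene's midpoint from the first base of Gimap8. Filled points passed the test. The members lie between -2.12 and -4.47, while 5 of the 6 neighbours are open and lie between -0.88 and 1.04.

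Promoters are shown for Gimap6 and Gimap9, the members whose profile over the 12 libraries was most and least like the family's average. The bases before the annotated gene start come from RefSeq (GRCm38.p6), with matches to the searched motifs in capitals.
Gimap6 (chr6:48708245-48708494, minus strand): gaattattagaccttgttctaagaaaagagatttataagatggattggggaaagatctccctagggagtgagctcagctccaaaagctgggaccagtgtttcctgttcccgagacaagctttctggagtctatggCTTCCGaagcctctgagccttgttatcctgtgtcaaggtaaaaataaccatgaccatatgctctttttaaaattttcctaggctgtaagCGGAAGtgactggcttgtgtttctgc
Gimap9 (chr6:48675885-48676128, plus strand): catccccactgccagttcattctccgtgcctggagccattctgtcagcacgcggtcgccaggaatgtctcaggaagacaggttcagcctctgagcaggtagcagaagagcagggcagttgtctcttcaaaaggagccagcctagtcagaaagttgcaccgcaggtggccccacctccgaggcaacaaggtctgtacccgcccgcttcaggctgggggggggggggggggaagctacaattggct
Each motif was searched on both strands in windows from 250 bases before to 50 bases after a start, of which the 8 members had 9. Gimap8 had 2 of these, which overlap, so a match in their common stretch is counted in both. The motif of the ETS family, spelled CGGAAG, was in 4 of the 9 windows, both of Gimap8 among them, and 16.9% of all 32851 promoters held it. For RUNX factors TGTGGT was in 3 of the member windows and in 16.8% of all promoters. The KLF motif CACCC was in 6 windows, again with both of Gimap8 among them, and in 57.5% of all promoters. For TCF/LEF factors CTTTGA was in 2 windows and in 16% of all promoters. The Ikaros family motif TGGGAA was in 1 window and in 25.6% of all promoters. The motif of GATA factors, AGATAA, was in 0 windows and in 11.2% of all promoters. Among the member windows 1 pair of matches to different motifs overlapped. The stretch of Gimap6 holds 2 matches to the ETS motif, and in the window of Gimap9 the KLF match lies after the gene start. A match is a description of letters and not evidence of binding.

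Most genes of the T cell and B cell lists were lower in SB spleens, as the family was. Of 25 T cell genes tested, 16 fell in SB spleens and 9 did not pass the test, with a median log2 change of -3.58 over the list. Of 22 B cell genes 21 fell and 1 did not pass, with a median of -6.27. Of all genes tested 9.75% were lower, and the median over all of them was 0.11. Among T cell genes, Lck, the kinase of the T cell receptor, had 19.3, 30.7 and 12.8 CPM in SB animals 1, 2 and 3 against 218, 183 and 213 CPM in WT animals 1, 2 and 3 (log2 -3.29, SE 0.35). Lef1, a transcription factor of T cells, and Trat1, a receptor adaptor, had log2 changes of -5.97 and -3.75 and fell, and Trat1 was at 0 in a piece of SB animal 3. Cd3e, a chain of the receptor complex, had 1.45, 17.3 and 0.993 CPM in SB animals 1, 2 and 3 against 74.3, 62.6 and 79.2 CPM in WT animals and did not pass the test (edgeR adjusted p = 0.0886), and neither did Cd8a (log2 -3.81) or Cd4 (log2 -0.28). Cd4 had 6.998, 280.6 and 9.98 CPM in SB animals 1, 2 and 3 against 128, 111.0 and 123 CPM in WT animals 1, 2 and 3, so it was above every WT animal in SB animal 2 and below every WT animal in the other SB animals. SB animal 2, the animal with the most Gimap3 and Gimap7 RNA, also had the most Cd3e, Cd8a and Cd4 of the SB animals. Not every gene of the list had that order. Lat, taken up below, was highest in SB animal 3 at 465 CPM. Trat1, low in all SB animals, was highest in SB animal 1, at 0.34 CPM against 0.242 CPM in SB animal 2. The count of 16 T cell genes was 7 without SB animal 1 and 3 without WT animal 1, 2 or 3. That of B cell genes was at least 19 with any animal left out (settings added after the data were seen). Of all genes, 18.3% were called in either direction with all animals and 24.4% without SB animal 1. Without WT animal 1, 2 or 3 that share was 4.56%, 3.07% or 3.53%. The part of T cell number in the Gimap differences between SB animals was not tested.

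B cell RNA was low in each SB spleen. Ms4a1, which encodes CD20, had 5.61, 9.65 and 7.48 CPM in SB animals 1, 2 and 3 against 891, 1063 and 1120.0 CPM in WT animals 1, 2 and 3 (log2 -7.08, SE 0.32). Cr2, Fcer2a and Ebf1 fell, with log2 changes of -7.73, -7.79 and -6.36. The summed B cell list had 285, 645 and 347 CPM in SB animals against 14130, 15710 and 15510 CPM in WT animals. 

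Set against the T cell list within each spleen, the Gimap family gave no single picture. The log2 ratio of Gimap counts to the summed T cell counts was -0.02, -1.12 and -2.55 in SB animals 1, 2 and 3, against 0.21, 0.37 and 0.27 in WT animals 1, 2 and 3, a mean difference of -1.51 (two-sided exact permutation p = 0.1), which was -0.854 without SB animal 3 and -2.12 without SB animal 1. The sum rested largely on a single gene in SB animals 2 and 3. Cd4 made 45.8% of it in SB animal 2. Lat, a signalling adaptor also found in mast cells and megakaryocytes, made 54.7% in SB animal 3 at 465 CPM. In SB animal 1 the largest part, of Lck, was 18.9%. With the 4 receptor complex genes alone the ratio was 4.04, 2.28 and 4.66 in SB animals against 3.13, 3.26 and 3.14 in WT animals, and the difference turned to 0.49 (exact permutation p = 0.6). The log2 ratio to the B cell list was -1.51, -1.20 and -1.26 in SB animals against -2.45, -2.64 and -2.52 in WT animals, a difference of 1.22 (exact permutation p = 0.1), and 2.21 with 4 B cell genes alone. Lat was named after its values were seen.

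Markers of the other cell types in which members are found moved less uniformly. Of 14 NK cell genes, 2 fell and 12 did not pass the test, with a median of -1.08. A count of 2 in 14 is not far from the 9.75% of all genes tested that were lower. The 2 were Txk and Klri2, and Klri2 was at 0 in both libraries of SB animal 3. Ncr1, a receptor that defines NK cells, had 0.34, 6.87 and 0.896 CPM in SB animals against 3.97, 4.67 and 4.46 CPM in WT animals and did not pass the test. The summed NK list had 979, 131 and 53.1 CPM in SB animals against 168, 149.7 and 172 CPM in WT animals, and 95.2% of it in SB animal 1 was Gzmb, a granule protease chosen here after its values were seen. Without SB animal 2 the count of NK cell genes that fell was 9, and without WT animal 1, 2 or 3 it was 1. Calls over all genes moved as well: 35.7% in either direction without SB animal 2, against 18.3% with all animals. Without WT animal 1, 2 or 3 the share was 4.56%, 3.07% or 3.53%. Of 22 endothelial genes 5 rose (beside 8.59% of all genes), 2 fell (beside 9.75%) and 15 did not pass, with a median of 1.18. The count of 5 was 12 without SB animal 2, and without WT animal 1, 2 or 3 no endothelial gene was called in either direction. Stab2, a scavenger receptor of sinusoids, and Eng, a co-receptor of TGF-beta signalling, rose by log2 changes of 1.09 and 1.36, while Pecam1, an adhesion molecule, fell by 1.16 and Madcam1, an adhesion ligand for lymphocytes, by 3.46. Cdh5 had 53.0, 47.8 and 177 CPM in SB animals against 33.2, 38.3 and 34.7 CPM in WT animals and did not pass the test (log2 1.39, edgeR adjusted p = 0.123). The summed endothelial list had 1681, 3631 and 2236 CPM in SB animals against 1106, 1177 and 1043 CPM in WT animals. In SB animal 2, 65.3% of that sum was Stab1 alone, at 2372 CPM, a gene named after its values were seen. The part of NK and endothelial cells in the Gimap changes was not tested.

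Genes around the family's biology changed in part. Of 20 genes of lymphocyte survival and homing, 10 fell (beside 9.75% of all genes) and 10 did not pass the test, with a median log2 change of -1.29. Without WT animal 1, 2 or 3, 6 fell, where 4.56%, 3.07% or 3.53% of all genes were called in either direction. Ccr7, the receptor that guides naive lymphocytes, had 3.09, 3.78 and 2.95 CPM in SB animals against 164, 187 and 187 CPM in WT animals (log2 -5.77, SE 0.19). Satb1, a chromatin organiser of T cells, and Foxp1, a transcription factor of resting lymphocytes, fell by 4.75 and 2.32 on the log2 scale. Of 16 partners and regulators of Gimap proteins, 3 fell (beside 9.75% of all genes) and 13 did not pass, with a median of -0.13. All 3 were transcription factors of lymphocytes (Tcf7, Irf4 and Bcl11b), and Tcf7 and Bcl11b are also counted in the T cell list. Among the partners and regulators the count lower in SB spleens was 1 without SB animal 1 or 3 and without WT animal 1, 2 or 3. Their count of genes higher was 2 without SB animal 2, without SB animal 3 and with DESeq2. Of all genes, 24.4%, 18.5% and 32.5% were called in either direction without SB animal 1, without SB animal 3 and with DESeq2. Bcl11b had 0.652, 6.96 and 0.388 CPM in SB animals against 58.5, 53.0 and 62.4 CPM in WT animals (log2 -4.45, SE 1.17, edgeR adjusted p = 0.0489), so it too was highest in SB animal 2 among SB spleens. Of 18 other GTPases of immune cells, 2 fell and 16 did not pass, with a median of -0.14. Without SB animal 2, 10 fell, and without WT animal 1, 2 or 3, 1 fell. Without SB animal 2, 35.7% of all genes were called in either direction, against 18.3% with all animals. A count of 2 in 18 is near the 9.75% of all genes tested that were lower. The 2 genes were Rhoh, a small GTPase of lymphocytes (log2 -1.95, SE 0.19), and Rac2, a small GTPase of blood cells (log2 -1.13, SE 0.23).

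Slc9a7, a sodium-proton exchanger, had the profile most like that of the family. Likeness was measured as the root-mean-square difference between a gene's mean-centred log2 CPM over the 12 libraries and the average of the members, among genes of at least 5 CPM on average. It was 0.23 for Slc9a7 and 0.27, 0.28, 0.28 and 0.29 for Prr5, Clcf1, Hvcn1 and Ppp1r16b, and Clu, Myo1e, Ifi208, Igkv16-104 and Gm45552 followed at 0.29 to 0.33. Slc9a7 had only 0.312, 1.21 and 0.702 CPM in SB animals 1, 2 and 3, against 11.2, 11.5 and 12.5 CPM in WT animals. Its mean therefore passed 5 CPM through the WT libraries, and its place is uncertain at such low SB levels. The same limit holds for Ifi208, Igkv16-104 and Gm45552. Their SB means were 0.80, 2.62 and 2.02 CPM, against WT means of 13.6, 48.3 and 38.8 CPM. Of the members, which are part of the average, Gimap6 (0.18), Gimap4 (0.24) and Gimap8 (0.31) lay within the 0.33 of these genes. Gimap1 (0.47), Gimap5 (0.60), Gimap3 (0.78), Gimap7 (0.93) and Gimap9 (1.16) lay farther out. Hvcn1, a proton channel of B cells, had 6.83, 22.4 and 7.77 CPM in SB animals 1, 2 and 3 against 166, 180 and 188 CPM in WT animals. It was picked for its likeness over these same libraries, so its order among the SB animals is not a separate result.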

How the data were processed

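Poly-A RNA of 12 spleen pieces was sequenced from unstranded libraries, per the labels' protocols. The values are whole-number read counts per Ensembl gene, deposited by the authors without normalisation, as judged from the values. STAR 2.5.3a, limma, mm10 and GRCm38 are named in the submitters' processing notes without a role. For the counting mode and read length, nothing is given in the sources used here. Symbols came from GENCODE M21 (95 identifiers unmatched).

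Counts of both pieces were summed per animal and tested with edgeR 4.0.16 in R 4.3.3 (TMM, filterByExpr, robust quasi-likelihood, two-sided, Benjamini-Hochberg adjustment over all genes, adjusted p under 0.05). Standard errors (SE) came from the F statistic. Pieces were compared over all 12 libraries, with a block for each animal because titles pair the pieces by animal, and animals were compared with a coefficient each. No label links an SB animal with a WT animal. Alternatives used DESeq2 1.42.0, limma-voom 3.58.1, RLE size factors, other filters and fewer samples. Scripts were tested on simulated data, in which animals of a genotype differed less than in these data. That test bears on the scripts only. P-values of SB against WT measure the spread between these animals. For tests between animals the error is the spread between pieces of a spleen. Between pieces, it is the spread of the piece difference over spleens.

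The members, lists, tests and named genes were chosen with earlier results of these data known. Named were all members, the other genes of the cluster and 3 tested protein-coding genes on each side, the 10 genes of most similar profile, up to 4 called genes per list by adjusted p, and Cd3e, Cd4, Cd8a, Ms4a1, Ncr1, Cdh5 and Pecam1. Some genes that this rule names are not reported here.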

Additional observations from a re-analysis of the deposited data

How the results depend on the processing

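All 8 members stayed lower in SB spleens under each of 14 alternatives. The 8 members were called under 8 alternatives that kept all animals (RLE size factors, no globin or immunoglobulin genes, no filter, DESeq2, limma-voom, no robust estimation, either piece alone). Beside them stood 8.52% (no filter) to 32.5% (DESeq2) of all genes, called in either direction. Leaving out an animal in turn gave 4 to 8 called members: 6, 8 and 7 without SB animal 1, 2 or 3, and 5, 4 and 4 without WT animal 1, 2 or 3. The shares of all genes called were 24.4%, 35.7% and 18.5% without SB animal 1, 2 or 3. They were 4.56%, 3.07% and 3.53% without WT animal 1, 2 or 3, against 18.3% with all animals. Gimap1, Gimap5, Gimap6 and Gimap8 were called under all 14. Over all genes, 3178 were called, against 5631 with DESeq2 and 554 to 6409 with an animal left out, the lowest without WT animal 2 and the highest without SB animal 2. The log2 ratio of Gimap counts to T cell counts changed sign, at 0.487 with 4 receptor complex genes in place of the list, and that to B cell counts was 2.21 with 4 genes; the cause was not tested. The count of members called between pieces was 0 in SB and in WT spleens under each of 6 alternatives, among them the fit without the replicate block (0 and 0), where the pairing by animal was ignored. The F tests between animals kept 8 members in SB and 0 in WT spleens under both alternatives. Depth limits Gimap7 most, at 16 to 29 counts per library in SB animals 1 and 3. With 3 animals against 3, exact tests cannot go below 0.1.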
